A study of Boehmeria nivea with 18 samples.

Results

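Small RNA libraries hold, besides miRNAs and siRNAs, tags from repeats of the genome and fragments of structural RNAs. Here all tags that the authors assigned to repeats, rRNA, tRNA, snRNA and snoRNA were described in ramie (Boehmeria nivea) stem bark. The members were the rows with 1 of these 5 types in the small RNA tables. They numbered 149 of the 7422 ids and classes listed: 1 summed row for repeats, 10 rRNA families, 1 tRNA family, 9 snRNA families and 128 snoRNA families. The families carry the names and numbers of Rfam, a database of RNA families that are each described by 1 alignment model. The tables give no tag sequences or repeat names, so that the kinds of repeats and the positions of the tags within an RNA were not analysed here.

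Bark was taken from the top stem section (TPS), where the walls of the fiber cells have not begun to thicken, and from the middle stem section (MPS), where the secondary walls are thickening. All plants were of the cultivar Zhongzhu 1, neither section was treated, the labels state an age of 40 days, and the bark came from 5 plants. Per the study's methods, bark was mixed within a section and the libraries are biological replicates. Each section had 3 small RNA libraries, numbered 1 to 3, and the comparison asks what differs in bark with growing fibers. A library held 2.8e+07 to 3.2e+07 tags. Levels are percent of the tags of a library or tags per 1000000 tags (TPM). Bark is a mixture of cell types, and a lower level may come from fewer cells of a type or from less RNA per cell, which cannot be told apart.

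In plants, transcripts of transposons and other repeats are cut into siRNAs that guide DNA methylation and keep the repeats silent. rRNA forms the core of the ribosome. The nuclear genome of a plant encodes the eukaryotic small subunit, large subunit, 5.8S and 5S rRNA, while chloroplasts and mitochondria carry rRNA of the bacterial kind. snRNAs are the RNA parts of the spliceosome, which removes introns, and snoRNAs guide chemical modification and cleavage of rRNA in the nucleolus. Fragments of all of them are cloned in small RNA libraries.

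Some features of the libraries bear on the results. The TPS and MPS libraries that carry the number 1 deviated together from their section means (Pearson's r = 0.519 across 4780 ids, which are not independent). For snoRNAs, the 3 MPS libraries differed from each other. The median log2 level over the TPS mean was 0.81, -0.12 and -0.84 in MPS replicates 1, 2 and 3. Tests with 3 libraries against 3 cannot give an exact p below 0.1.

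Repeats and rRNA took a larger share of the tags in every MPS library than in any TPS library. Together the 5 types made up 18.0%, 21.3% and 19.5% of the tags in TPS replicates 1, 2 and 3, and 24.0%, 30.3% and 25.8% in MPS. Nearly all of these were repeat tags, and the 4 types of structural RNA held 0.841 to 1.07% of a TPS library and 1.31 to 1.76% of an MPS library. Ranked by tags, repeats came first, followed by rRNA, snRNA, snoRNA and tRNA in each section.

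Repeats gave 40272137 tags over the 6 libraries. They took 17.2%, 20.2% and 18.7% of the tags in TPS replicates 1 to 3, and 22.7%, 28.5% and 24.5% in MPS. The lowest MPS library therefore lay above the highest TPS library. The mean was 18.7 ± 1.52% in TPS against 25.2 ± 2.99% in MPS (SD over 3 libraries each; two-sided exact permutation test, p = 0.1; adjusted p = 0.35 over the 14 types in the files). Between libraries of the same number, the share was 1.32, 1.41 and 1.31 times as high in MPS. The labels do not state that same-numbered libraries are pairs, so that such ratios, here and below, are descriptive. The difference between the means was 6.57 percentage points.

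Intergenic tags, the largest class, moved the other way, from 48.5 ± 1.18% in TPS to 39.3 ± 1.25% in MPS. Since shares of a library sum to a whole, a gain of one class and a loss of another cannot be told apart. The number of repeat tags per intergenic tag was 0.352, 0.427 and 0.376 in TPS and 0.580, 0.749 and 0.605 in MPS, with no overlap. Counted together, repeat and intergenic tags held 65.9 to 68.3% of the tags in TPS and 61.8 to 66.6% in MPS, and the sections overlapped. As a share of the tags outside the intergenic class, repeats took 33.5, 38.3 and 37.0% in TPS and 37.3, 46.1 and 41.3% in MPS. In this scaling TPS replicate 2 lay above MPS replicate 1 (exact permutation test, p = 0.2). The siRNAs listed by id held 3.25 ± 0.252% and 3.42 ± 0.552% of the tags (exact permutation test, p = 0.8). Repeat tags numbered 5.79 ± 0.901 per siRNA tag in TPS and 7.57 ± 1.86 in MPS, with overlapping sections.

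rRNA fragments took 0.778%, 1.01% and 0.784% of the tags in TPS replicates 1 to 3, and 1.24%, 1.71% and 1.26% in MPS. Every MPS library lay above every TPS library, and replicate 2 was the highest in both sections. The means were 0.856 ± 0.130% and 1.40 ± 0.261% (exact permutation test, p = 0.1; adjusted p = 0.35 over 14 types). In same-numbered pairs the share was 1.60, 1.70 and 1.61 times as high in MPS. As a share of the tags outside the intergenic class, rRNA still did not overlap, with 1.52 to 1.91% in TPS and 2.04 to 2.75% in MPS. The 6 libraries had the same order for rRNA and for repeats: TPS replicates 1, 3 and 2, then MPS replicates 1, 3 and 2. Both shares have the same denominator, and repeat tags per rRNA tag were 20.1 to 23.8 in TPS and 16.7 to 19.4 in MPS.

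The other 3 types did not part the sections. The mean share of snRNA was 0.0396 ± 0.00833% in TPS and 0.0356 ± 0.00855% in MPS (SD, n = 3; exact permutation test, p = 0.5). The share in MPS was 0.920, 0.911 and 0.855 times that of the same-numbered TPS library. If these are taken as pairs, which was not shown, it was lower in 3 of 3 (exact sign-flip test, p = 0.25, the smallest possible with 3 pairs). snoRNA held 0.0221 ± 0.00291% and 0.0258 ± 0.00936% (exact permutation test, p = 0.9). The higher mean in MPS rested on replicate 1: the same-numbered ratios were 1.51, 0.947 and 0.998, and MPS minus TPS went from 0.00369 to -0.00162 percentage points without MPS replicate 1. tRNA fragments, counted under 1 family, held 0.00295 ± 0.000859% and 0.00392 ± 0.00170% (exact permutation test, p = 0.4). The widest 95% Wilson interval reached 0.0160 percentage points to either side for repeats, 0.00459 for rRNA, 0.000782 for snRNA, 0.000662 for snoRNA and 0.000252 for tRNA. These intervals cover counting error alone and take each tag as a separate molecule. The sources used here do not mention molecular identifiers, so that some tags may be copies of 1 molecule. The spread between libraries was larger than these intervals in each type.

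**Figure D1:**
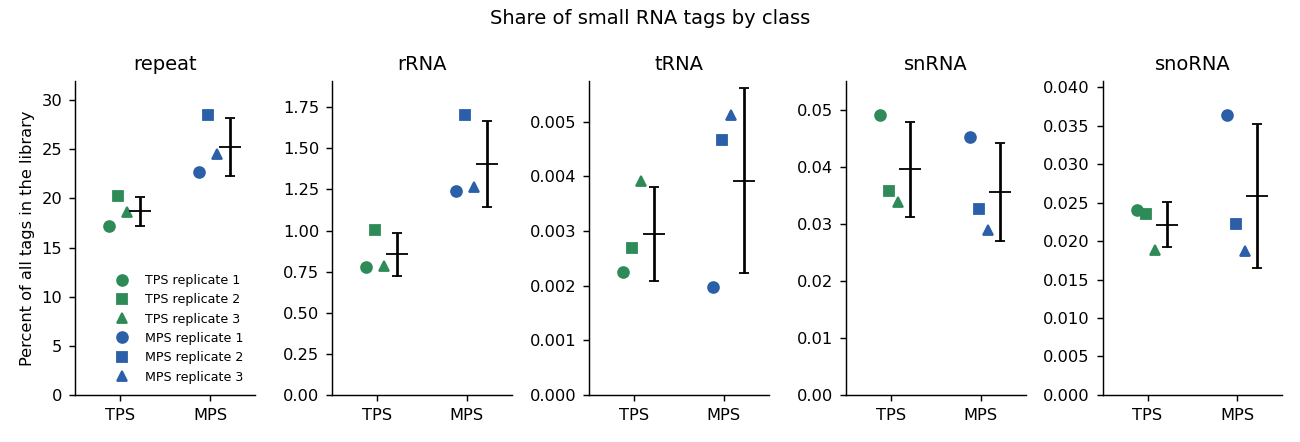
Percent of all tags of a library (y axes, each from 0) for the 5 types in the 3 TPS and 3 MPS libraries, where points are libraries and bars give the mean ± SD. For repeats and rRNA all MPS points lie above all TPS points, while the points of tRNA, snRNA and snoRNA overlap between the sections.

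Single families were compared by counts in edgeR's quasi-likelihood test, together with the miRNAs, siRNAs and other Rfam families of the same files. Of the 147 rRNA, snRNA and snoRNA families, 47 passed the filter on low counts: 9 of rRNA, 4 of snRNA and 34 of snoRNA. A call needed an adjusted p under 0.05 with a log2 fold change of 1 or more in size. edgeR called 0 of the 47 and 0% of the 4780 ids tested. An unadjusted p under 0.05 was found for 7 of the 47 (14.9%), and for 10.5% of all ids tested. Of the 7, MPS was higher in 4 (4.9% of all ids) and lower in 3 (5.63% of all ids). In 12 of the 47 the sections did not overlap (25.5%, against 21.7% of all ids), with MPS above TPS in 9 (12.6% of all ids) and below it in 3 (9.02% of all ids). Overlap was judged, here and below, on TPM without TMM scaling. The TMM factors ran from 0.894 in TPS replicate 1 to 1.199 in MPS replicate 1. Divided by these factors, the sections overlap for the eukaryotic small and large rRNA subunits, U2 and plant U3, all counted here as MPS above TPS. The share of all ids without overlap on that scale was not determined. DESeq2 called 3 of the 47, all higher in MPS, and 4.52% of all ids (2.03% higher), and limma on log2 TPM called 0. The share of families higher in MPS was above that of all ids by non-overlap in unscaled TPM and by DESeq2, in counts of 9 and 3 families. No test was made of this difference, and a family that passes the filter through 1 section alone must differ between the sections. All log2 fold changes below are MPS over TPS from edgeR with TMM scaling, with approximate standard errors. Over all ids their median was -0.01, and 49.5% of them were positive.

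Among the rRNA families, those of nuclear rRNA had a higher TPM in every MPS library than in any TPS library. After division by the TMM factors this held for 5.8S and 5S, but not for the eukaryotic small and large subunits. Families of the bacterial kind overlapped between the sections in TPM. Tags of the eukaryotic small subunit (RF01960), which reads the mRNA, were by far the most common, with 77.7% of the 2078067 rRNA tags. They were at 6089, 7622 and 6153 TPM in TPS and 9496, 13582 and 9783 TPM in MPS. No library overlapped in these TPM, but with TMM scaling MPS replicate 1 lay slightly below TPS replicate 2. The log2 fold change was 0.61 (standard error 0.335, adjusted p = 0.624 from edgeR). Without MPS replicate 2, the highest library, the log2 fold change was 0.37. 5.8S rRNA (RF00002), which pairs with the large subunit rRNA, was at 858, 1072 and 742 TPM in TPS and 1589, 1808 and 1328 TPM in MPS. Its log2 fold change was 0.69 (standard error 0.303, adjusted p = 0.499 from edgeR), and the sections did not overlap. The eukaryotic large subunit (RF02543), which joins the amino acids, was at 654, 1090 and 753 TPM in TPS and 1128, 1430 and 1343 TPM in MPS. In these TPM the sections lay close to each other but did not overlap, while with TMM scaling MPS replicate 1 lay below TPS replicate 2. The log2 fold change was 0.53 (standard error 0.328, adjusted p = 0.661 from edgeR).

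5S rRNA (RF00001) is transcribed apart from the other nuclear rRNAs, by RNA polymerase III. It was rare among the fragments, with 8.44, 14.2 and 14.7 TPM in TPS and 22.4, 24.0 and 24.5 TPM in MPS. MPS was above TPS in each library, and of the rRNA families this one had the lowest adjusted p from edgeR (log2 fold change 0.82, standard error 0.280, adjusted p = 0.379). Among all rRNA tags, the single shares of the 3 most common nuclear families differed little between the sections. The eukaryotic small subunit held 77.5 ± 1.49% of the rRNA tags in TPS and 77.8 ± 1.67% in MPS, 5.8S held 10.4 ± 0.819% and 11.3 ± 1.28%, and the eukaryotic large subunit 9.61 ± 1.22% and 9.36 ± 1.16%. All 3 shares overlapped between the sections. Summed, these families held 97.3 to 97.6% of the rRNA tags in TPS and 98.2 to 98.7% in MPS, with no overlap.

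The model of the bacterial small subunit (RF00177), to which rRNA of chloroplasts and mitochondria is akin, counted 93.0, 130 and 91.0 TPM in TPS and 110, 102 and 72.3 TPM in MPS. The bacterial large subunit (RF02541) was at 63.5, 80.7 and 58.1 TPM in TPS and 63.4, 71.1 and 49.1 TPM in MPS. For both, the sections overlapped, and the log2 fold changes were -0.29 (standard error 0.277, adjusted p = 0.830 from edgeR) and -0.27 (standard error 0.278, adjusted p = 0.846 from edgeR). Without TPS replicate 2 they were -0.086 and -0.11, and with header totals in place of TMM -0.15 and -0.14. Whether these tags came from organelles or from bacteria on the bark was not tested.

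Set against the nuclear rRNA of the same library, fragments of the bacterial kind were less common in MPS. Per 100 tags of the eukaryotic small subunit there were 1.53, 1.71 and 1.48 tags of the bacterial small subunit in TPS, and 1.16, 0.747 and 0.739 in MPS. Per 100 tags of the eukaryotic large subunit there were 9.72, 7.41 and 7.72 tags of the bacterial large subunit in TPS, and 5.62, 4.97 and 3.66 in MPS. The sections did not overlap in either ratio, which does not depend on the library total. The mean ratio in MPS was 0.561 times that in TPS for the small and 0.573 times for the large subunit. These ratios were chosen after the values were seen and were not tested.

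Models of rRNA from other groups of organisms share conserved stretches with the plant rRNAs, so that tags of 1 molecule can be split between models and the counts under them are uncertain. The archaeal small subunit (RF01959) counted 12.1, 40.1 and 24.3 TPM in TPS and 23.2, 28.9 and 13.0 TPM in MPS. The archaeal large subunit (RF02540) was at 2.34, 4.95 and 2.25 TPM in TPS and at 3.19, 3.99 and 6.40 TPM in MPS. Both overlapped between the sections. The pseudoknot of 23S rRNA (RF01118) had 67 to 152 tags in a library, and the microsporidian small subunit (RF02542) 2 to 5.

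**Figure D2:**
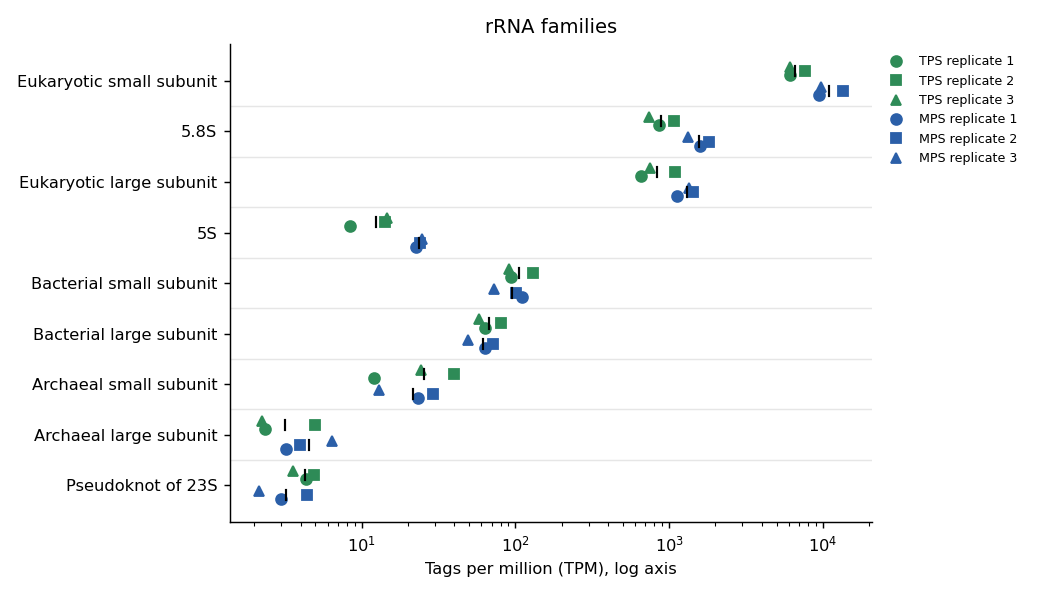
TPM of 9 rRNA families (x axis, log scale) in each library, with TPS in green, MPS in blue and the section means as black lines. The eukaryotic small subunit, 5.8S, the eukaryotic large subunit and 5S have all MPS points to the right of all TPS points, whereas the bacterial and archaeal models overlap.

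**Figure D3:**
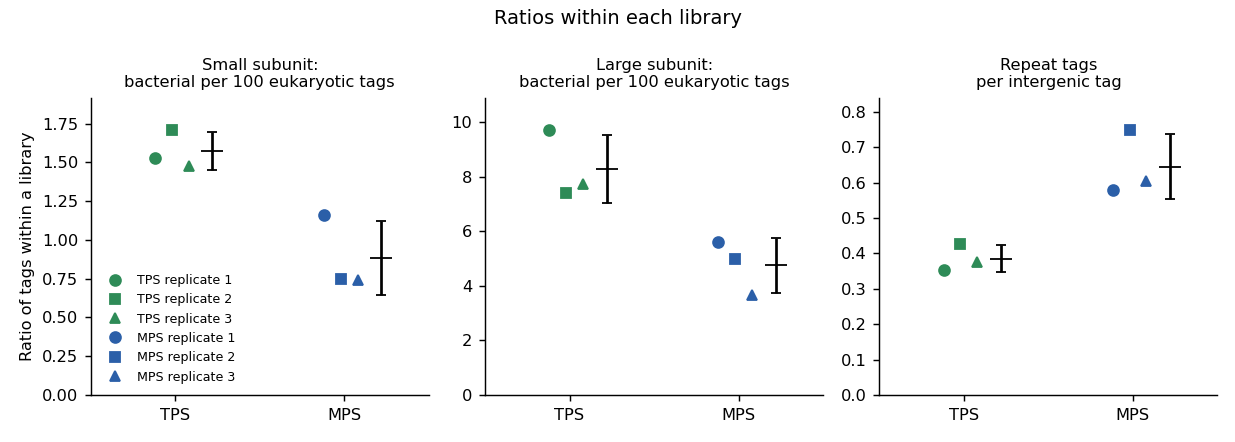
Ratios of tags within each library (y axes, each from 0), with points for libraries and bars for the mean ± SD: bacterial per 100 eukaryotic tags for the small and the large rRNA subunit, and repeat tags per intergenic tag. The first pair of ratios is lower and the last is higher in every MPS library than in any TPS library.

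The snRNA tags came nearly all from U6. U6 (RF00026), which forms part of the catalytic core of the spliceosome, held 88.1% of the 68885 snRNA tags. It was at 446, 311 and 297 TPM in TPS and 409, 282 and 240 TPM in MPS. Replicate 1 was the highest in both sections, each MPS library was below the TPS library of its number, and the sections overlapped (log2 fold change -0.35, standard error 0.313, adjusted p = 0.804 from edgeR). Without TPS replicate 1 the log2 fold change was -0.082, and with header totals in place of TMM -0.18. U2 (RF00004), which pairs with the branch point of the intron, was at 29.0, 30.2 and 27.9 TPM in TPS and 32.3, 31.4 and 39.4 TPM in MPS. Here every MPS library was above every TPS library, but the gap was narrow and was lost with TMM scaling. The log2 fold change was 0.12 (standard error 0.242, adjusted p = 0.935 from edgeR), and -0.036 without MPS replicate 3.

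U6atac (RF00619) takes the place of U6 in the minor spliceosome, which removes a small class of introns. It was at 10.2, 11.2 and 8.81 TPM in TPS and 6.66, 7.20 and 6.17 TPM in MPS. All MPS libraries lay below all TPS libraries (log2 fold change -0.73, standard error 0.252, adjusted p = 0.389 from edgeR). U1 (RF00003), which binds the start of the intron, was at 5.45, 5.11 and 3.81 TPM in TPS and 3.07, 5.07 and 3.12 TPM in MPS, with overlap (log2 fold change -0.47; -0.28 without MPS replicate 1 and -0.82 without MPS replicate 2). Without U6, all snRNAs together were at 44.1 ± 3.25 TPM in the top section and 45.1 ± 3.34 TPM in the middle section.

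The other snRNAs were close to the limit of detection. U12 of the minor spliceosome (RF00007) had 24 tags in all 6 libraries, U4 (RF00015) had 17 and U5 (RF00020) had 6. U4 was listed in 2 TPS libraries with 3 tags in total and in all 3 MPS libraries with 14. SmY (RF01844), known from nematodes, had 4 tags in TPS replicate 2, and a signal recognition particle RNA of Dictyostelium (RF01570), which the files place among the snRNAs, had 1 tag in MPS replicate 3. A count of 0 allows up to 3 tags, or 0.0939 to 0.109 TPM in these libraries.

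The snoRNA tags were spread over many families with few tags each. Of the 128 families, 46 were found in all 6 libraries, 41 in 1 library alone, and 69 had fewer than 10 tags in total. The 8 most common families held 76.1% of the 44151 snoRNA tags. The 60 families with Z, R, J, F or snoR names, many of them described in plants, held 66.6% of the tags. The 31 families with SNORD, SNORA or Cajal body names held 4.32%. Of the 9 families named for fungi, protists or animals, 1 accounted for 8167 of 8184 tags.

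That family is Afu_294 (RF01506), a snoRNA described in the fungus Aspergillus fumigatus. It was at 27.0, 7.38 and 5.62 TPM in TPS and 76.2, 89.1 and 57.6 TPM in MPS, and the lowest MPS library was above the highest TPS library. It held 11.2, 3.14 and 2.99% of the snoRNA tags in TPS and 20.9, 40.0 and 30.7% in MPS, where it was the most common snoRNA family in each library. The log2 fold change was 2.30 (standard error 0.704, adjusted p = 0.299 from edgeR), and without TPS replicate 1 it was 3.43. DESeq2 called it (adjusted p = 0.0234), and over all settings its adjusted p was 0.0234 to 0.779. Whether the tags stem from a fungus, from ramie or from a like stretch of another RNA was not tested.

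Z101 (RF00358), of a family described in plants, was nearly absent from TPS. It had 0, 3 and 1 tags in TPS replicates 1 to 3 and 171, 383 and 167 tags in MPS, or 7.75 ± 4.14 TPM in MPS (SD, n = 3). Of the 47 families tested it had the largest log2 fold change in size, 7.23 (standard error 0.939). In edgeR its adjusted p was 0.250, and the size of the log2 fold change depends on how counts near 0 are treated: it was 2.97 from limma on log2 TPM with 1 added. Z101 passed the filter on low counts through MPS alone. DESeq2 called it (adjusted p = 4.69e-10), and over all settings its adjusted p was 4.69e-10 to 0.743.

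SNORD57 (RF00274) had 13, 15 and 13 tags in TPS and 103, 40 and 39 tags in MPS. MPS replicate 1 was far above the other libraries, and MPS replicates 2 and 3 were still above all of TPS (log2 fold change 1.87, standard error 0.426, adjusted p = 0.250 from edgeR; 1.43 without MPS replicate 1). DESeq2 called this family as well (adjusted p = 0.0276, range over all settings 0.0276 to 0.743). R11/Z151 (RF00349) had 16, 93 and 42 tags in TPS and 13, 15 and 17 tags in MPS. TPS replicate 1 was level with MPS, so that the sections overlapped (log2 fold change -1.90, standard error 0.661, adjusted p = 0.389 from edgeR; -1.14 without TPS replicate 2). Z101, SNORD57 and R11/Z151 were chosen after their values were seen.

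snoR60 (RF00339), a plant family and the most common in TPS, was at 86.9, 69.0 and 52.3 TPM in TPS and 53.2, 12.5 and 56.7 TPM in MPS. MPS replicate 2 was low, while the other MPS libraries lay within the range of TPS (log2 fold change -0.95, standard error 0.574, adjusted p = 0.654 from edgeR; -0.53 without MPS replicate 2). snoR86 (RF00303) was at 20.4, 31.7 and 22.2 TPM in TPS and 15.1, 16.5 and 7.94 TPM in MPS. Every MPS library was below every TPS library (log2 fold change -1.05, standard error 0.357, adjusted p = 0.379 from edgeR). Plant U3 (RF01847), which is needed for the first cuts of the rRNA precursor, was at 11.8, 9.84 and 10.2 TPM in TPS and 18.4, 13.3 and 12.6 TPM in MPS. MPS was above TPS in each library, by little for replicates 2 and 3, and with TMM scaling the sections overlapped. The log2 fold change was 0.32 (standard error 0.234, adjusted p = 0.738 from edgeR).

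For other common families, the level in MPS replicate 1 set the mean of the section. snoR64a (RF01163) was at 17.7, 16.7 and 8.56 TPM in TPS and 45.2, 6.51 and 4.95 TPM in MPS. R16 (RF00296) was at 7.11, 6.28 and 4.42 TPM in TPS and 23.8, 4.29 and 3.67 TPM in MPS. U61 (RF01170) was at 7.82, 12.1 and 10.8 TPM in TPS and 15.1, 4.71 and 4.50 TPM in MPS. In all of them MPS replicate 1 was above every TPS library and the other MPS replicates were below every TPS library. snoR14 (RF01280) was at 15.9, 22.9 and 20.2 TPM in TPS and 23.4, 15.1 and 8.58 TPM in MPS. The pattern was the same, though MPS replicate 1 was only just above TPS replicate 2. With TMM scaling, MPS replicate 1 lay below TPS replicate 2 for snoR14 and, by very little, for U61. For R16, MPS replicate 2 then lay just above TPS replicate 3. Without MPS replicate 1, the log2 fold change went from 0.12 to -1.38 for snoR64a, from 0.57 to -0.64 for R16, from -0.54 to -1.19 for U61 and from -0.49 to -0.77 for snoR14. For U61 it was -0.29 without MPS replicate 2 or 3, and for snoR14 -0.22 without MPS replicate 3.

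In most snoRNAs with enough tags, MPS replicate 1 was the highest of the MPS libraries. Of the 34 families that passed the filter, 27 were higher in MPS replicate 1 than in both other MPS libraries. Among the 34, 22 had their highest level there, and 21 had their lowest level in MPS replicate 3. These counts were not made over all ids tested, so that whether they are particular to snoRNAs was not tested. Their median log2 level over the TPS mean was 0.81 in MPS replicate 1, -0.12 in MPS replicate 2 and -0.84 in MPS replicate 3. These levels are TPM without TMM scaling, and the TMM factor was 1.199 for MPS replicate 1 against 0.970 and 0.990 for MPS replicates 2 and 3. Of the 9 rRNA families, 1 was highest among the MPS libraries in replicate 1. Other classes were also highest in MPS replicate 1 among the MPS libraries. In MPS replicates 1 to 3, snRNA stood at 452, 326 and 289 TPM. There, siRNAs held 4.06, 3.08 and 3.13% of the tags, and tags typed as mature miRNA 14.4, 9.74 and 12.4%. In these classes replicate 1 was the highest in TPS too. TPS replicates 1 to 3 had 491, 358 and 338 TPM of snRNA, 3.53, 3.03 and 3.20% of siRNAs and 11.5, 11.2 and 9.41% of mature miRNA. Of the 34 snoRNAs, 11 were higher in TPS replicate 1 than in both other TPS libraries. In the fit of all 6 libraries, the median log2 fold change of the 34 snoRNAs was 0.06, with 19 of them positive. Without MPS replicate 1, it was -0.64 over 37 snoRNAs, with 9 positive, against 0.02 over all ids. Without MPS replicate 3, it was 0.35 over 37 snoRNAs, with 23 positive, against -0.03 over all ids. With the replicate block it was -0.15 over 34 snoRNAs, with 14 positive. The direction of this median thus depended on the libraries used. All snoRNAs without Afu_294 and Z101 were at 214, 228 and 182 TPM in TPS and 283, 121 and 125 TPM in MPS.

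**Figure D4:**
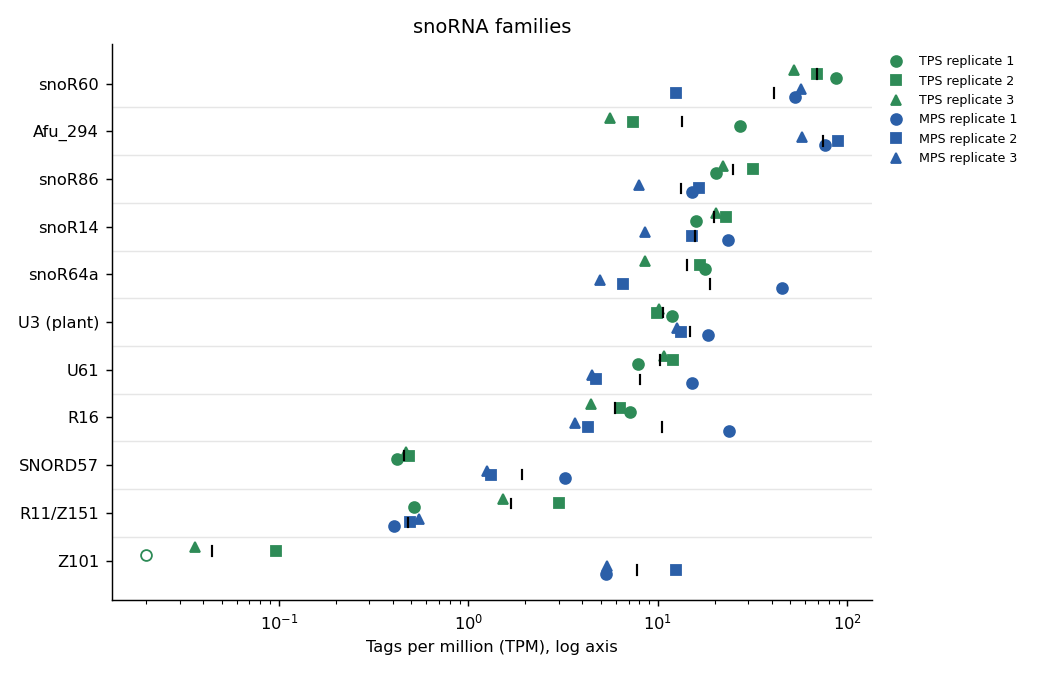
TPM of 11 snoRNA families (x axis, log scale) in each library, with TPS in green, MPS in blue and the section means as black lines. The open symbol at the left edge marks 0 tags of Z101 in TPS replicate 1, a value that a log axis cannot show, and the blue circles of snoR64a, R16 and U61 lie far to the right of the other MPS symbols.

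**Figure D5:**
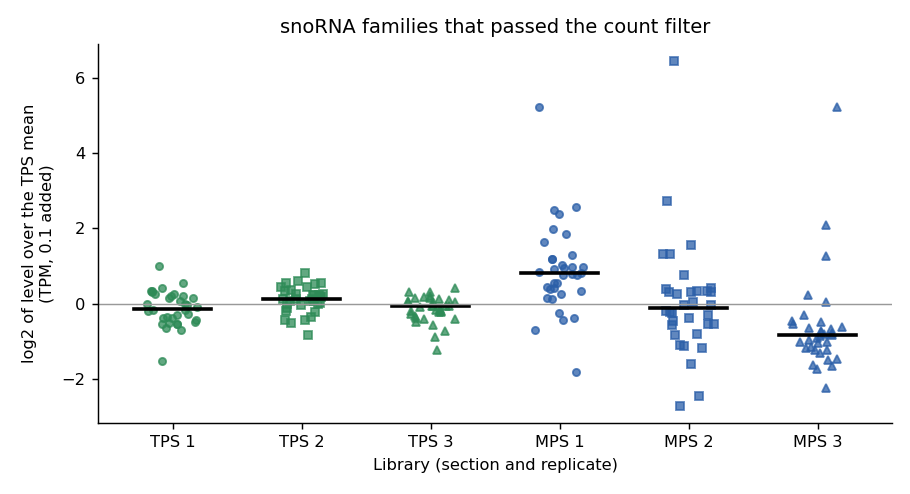
log2 of the TPM of the 34 snoRNA families that passed the count filter over their TPS mean, with 0.1 TPM added to each (y axis), by library (x axis), where points are families and black lines are medians. The median is 0.81 in MPS replicate 1 and -0.84 in MPS replicate 3, and the 3 highest points at the top of the MPS libraries are Z101.

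tRNA fragments were listed under 1 family for all tRNAs (RF00005), so that single tRNAs, which carry the amino acids to the ribosome, could not be told apart. The family had 692, 831 and 1077 tags in TPS replicates 1 to 3, and 632, 1425 and 1595 tags in MPS. This was 22.5, 26.9 and 39.1 TPM in TPS and 19.8, 46.6 and 51.3 TPM in MPS. MPS replicate 1 was the lowest of the 6 libraries and the other MPS replicates were the highest, so that the sections overlapped. Of the rRNA, tRNA, snRNA and snoRNA tags together, rRNA made up 92.9 ± 1.55% in TPS and 95.4 ± 1.54% in MPS.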

How the data were processed

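The 6 small RNA libraries were used; the cDNA and circRNA files were not. Per the paper's methods, the authors filtered BGISEQ-500 reads, matched clean tags with miRBase (AASRA) and Rfam (CMsearch) and predicted further miRNAs (PIPmiR). The deposited counts are whole numbers of tags per id, or per class for repeats, whose annotation method was not given in the sources used here. The deposited TPM values were made by the authors from the count over the header total, which equals the summed counts, and were recomputed within 0.00500. The paper gives an age that differs from the labels' 40 days.

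For class shares, exact permutation tests (two-sided) were used. Counts of all ids in types with at least 2 ids were compared with edgeR 4.0.16 (quasi-likelihood, TMM, filterByExpr, header totals as library sizes) in R 4.3.3, with Benjamini-Hochberg adjustment over 4780 ids. The paper's DEGseq test was not used. Each standard error was taken as the size of the log2 fold change divided by the root of F. DESeq2 1.42.0, limma 3.58.1, other filters, scalings and left-out libraries were alternatives. Python 3.11.15 was used for the rest. The common dispersion was 0.566. In simulated libraries of 4780 ids with this dispersion, edgeR recovered 0 of 200 ids with a log2 fold change of 2 and 147 of 200 with one of 4, with 0 and 4 false calls. With a dispersion of 0.05 it recovered 198 and 199 of 200, with 7 and 0 false calls. Each simulation had a single dispersion, while the standard errors of the families tested ran from 0.234 (plant U3) to 1.01 (Z105). Which changes edgeR could find in a given family was therefore not tested.

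Tests were unpaired, with the replicate block as an alternative. Over all ids tested, the deviations of TPS and MPS replicates 1, 2 and 3 from their section means correlated at 0.519, 0.176 and 0.433, and those of TPS replicate 3 and MPS replicate 2 at 0.297. Over the 47 families tested here, the same-numbered correlations were 0.334, -0.0388 and -0.0942. TPS replicate 2 with MPS replicate 3 reached 0.330, so that pairing was not shown for these families. With the block, the common dispersion was 0.332. In that fit edgeR gave an unadjusted p under 0.05 for 9 of the 47 families and 639 of the 4780 ids. The labels do not state a pairing. The families named were the 8 with the most tags per type and any called by edgeR, which were none; others named were chosen after their values were seen or to account for rare families. The members and lists were chosen with earlier results of these data known.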

Additional observations from a re-analysis of the deposited data

How the results depend on the processing

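For repeats, rRNA and tRNA, the difference between the sections kept its direction under every alternative run: other denominators, a log2 scale and the left-out libraries. Without 1 library each, MPS minus TPS was 4.93 to 7.85 percentage points for repeats, 0.397 to 0.628 for rRNA, 0.000374 to 0.00195 for tRNA, -0.00881 to 0.000775 for snRNA and -0.00162 to 0.00722 for snoRNA. The snRNA difference was positive without TPS replicate 1. The snoRNA difference of 0.00369 points turned to -0.00162 without MPS replicate 1, -0.000638 with replicates 2 and 3 only, -0.000504 outside the intergenic class and -0.00318 without Afu_294 and Z101, a setting added after seeing the data; apart from what each leaves out, the cause was not tested. With the replicate block, the exact sign-flip test gave p = 0.25 for repeats and rRNA, and the block changed no call.

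edgeR called 0 ids in every setting, including without each library. DESeq2 was run on all 6 libraries only and called 216 of all ids and 3 of these families. The cause of this difference between the methods was not tested. Header totals without TMM moved the median log2 fold change of all ids by 0.129 and turned no named family. The log2 fold change of snoR64a was -0.41 with the replicate block, -1.14 with replicates 2 and 3 only, -0.20 from limma and -0.47 with a term for replicate 1 (added after seeing the data), and -1.38 to 0.55 without 1 library. R16 was at -0.42 with replicates 2 and 3 only and at -0.64 to 0.95 without 1 library, the archaeal small subunit at -0.68 to 0.17, and U2 at -0.036 (without MPS replicate 3) to 0.24. A planned fit on these families alone was run once and then left out, with no values kept, because its p-values would be adjusted over these families only. Families with few tags are limited by counting error.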
